A study of Sus scrofa with 12 samples.

Results

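The 7 genes described here are transcription regulators of mesenchymal cells, the connective tissue cells that make and keep up the matrix of a heart valve: TCF21, TBX2, HES1, HEY2, PRRX1, TWIST2 and VGLL3. They were measured in porcine aortic valvular interstitial cells, the fibroblast-like cells of the valve leaflet, on Affymetrix arrays. Every probe set whose only gene symbol in the platform annotation was one of these names was taken, which gave 11 of the 23999 probe sets on the array, for 7 of the 6765 genes that had a probe set with a single symbol. HEY2 and TBX2 had 3 probe sets each and the other genes 1 each, and 10 of the 11 passed the filter on low values. Where a gene had several, the one with the highest mean over all arrays stands for it, and the others are given beside it.

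The cells came from adult pig valves digested with collagenase II, and 12 arrays held 4 groups of 3 biological replicates. Cells called P2 untreated had gone through 2 passages on tissue culture plastic, in medium with 1% serum. Other P2 cells received porcine TGF-β1, a secreted factor under which fibroblasts become contractile myofibroblasts, at 5 ng/ml for 8 h or for 24 h, and all P2 cells were collected on day 3 of culture. P0 cells were taken straight after isolation and had not been cultured, so culture on plastic, passaging and low serum all separate P2 untreated from P0 cells.

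Several of the genes belong to known regulatory families. HES1 and HEY2 encode repressors that are switched on when a Notch receptor, cut after it meets a ligand such as JAG1 on a neighbouring cell, joins the DNA-binding protein RBPJ. TCF21 and TWIST2 encode basic helix-loop-helix (bHLH) proteins, which bind DNA in pairs with E proteins such as TCF4. In the mouse, TCF21 is needed for the fibroblasts of the heart that come from the epicardium, and TBX2, a T-box repressor, takes part in patterning the region where the valves form. PRRX1 encodes a homeobox protein of embryonic mesenchyme and fibroblasts. VGLL3 encodes a cofactor with no DNA-binding domain of its own that acts through TEAD proteins, the factors that also carry the output of the Hippo pathway.

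Values are log2 expression values as deposited, so a difference of 1 is a 2-fold difference, and the level of one probe set cannot be set against that of another. The 64 reporter control probe sets had a median of 3.07 and a 95th percentile of 4.58, called the control level below. Arrays of one group correlated at 0.982 to 0.994. Markers of valve interstitial cells and fibroblasts had a mean over 10 genes of 11.89 to 12.16 on P2 untreated, 11.84 to 12.02 at 8 h, 11.79 to 11.86 at 24 h and 12.07 to 12.23 on P0 arrays. The P2 arrays numbered 3 stood apart in endothelial markers: their mean over 15 genes was 5.69 in P2 untreated, 5.76 at 8 h and 5.55 at 24 h, against 6.86 to 7.39 on the other P2 arrays and 7.20 to 7.42 on P0 arrays. VWF, which defines endothelial cells, had a mean under the control level in all groups on 2 of its 3 probe sets. On the other one it had a mean of 3.43 in P2 untreated, 3.46 at 8 h and 3.50 at 24 h, under the control level, against 6.83 ± 0.41 in P0 cells (SD, n = 3). P2 arrays of the same number also varied together, so TGF-β1 results of the 7 genes are given with that number as a block where it changed the call. For other listed genes this was done in part.

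All 7 genes differed between P2 untreated and P0 cells, in both directions. TCF21, TBX2 and HES1 were 9.59 to 15.3-fold lower in P2 untreated cells, and VGLL3, HEY2, PRRX1 and TWIST2 were 3.29 to 43.7-fold higher. In this comparison 59.4% of the 17638 tested probe sets passed the test, 33.6% upward and 25.8% downward, so passing it does not set a gene apart. The groups did not overlap for any of the 7 genes, against 65.1% of tested probe sets. Over the 7 genes the median absolute log2 change was 3.26, beside 0.54 over all tested probe sets. The 7 genes were chosen with earlier results of these data known. These sizes, and the ranks and sizes given below against all probe sets, are therefore descriptions only.

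TCF21 had log2 values of 7.79, 7.38 and 8.51 on P2 untreated arrays, against 12.05, 11.97 and 11.47 on P0 arrays. Every P2 untreated array lay at least 2.96 below the lowest P0 array. The log2 change was -3.94 ± 0.32 (SE, n = 3 each; adjusted p = 6.00e-07), and 1.43% of tested probe sets changed by more. In whole samples such as these, fewer cells that express a gene and less RNA per cell cannot be told apart, and this holds for each result that follows.

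TBX2, on its brightest probe set (Ssc.23823.1.A1_at), had values of 5.03, 5.55 and 4.84 on P2 untreated arrays and 8.97, 8.57 and 8.31 on P0 arrays. The P2 untreated arrays lay just above the control level and the P0 arrays well above it. The change was -3.48 ± 0.26 (SE, n = 3 each; adjusted p = 2.85e-07), or 11.1-fold lower. The other 2 TBX2 probe sets did not show this. Ssc.23784.1.A1_at was at 4.93 on each P2 array and at 4.93 to 4.98 on P0 arrays (adjusted p = 0.879), with 11 of 12 arrays within 0.01 of its lowest value. Ssc.23823.2.A1_at stayed under the control level on all 12 arrays and was not tested. The fall of TBX2 therefore rests on 1 probe set, and the disagreement was not resolved here.

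HES1 had values of 6.43, 5.85 and 5.39 on P2 untreated arrays, against 9.24, 9.45 and 8.77 on P0 arrays. The groups lay 2.34 apart at their nearest arrays. The change was -3.26 ± 0.31 (SE, n = 3 each; adjusted p = 2.75e-06), or 9.59-fold lower in P2 untreated cells.

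VGLL3 had the largest change of the 7 genes. Its values were 9.93, 10.07 and 10.37 on P2 untreated arrays, against 5.06, 4.92 and 4.04 on P0 arrays. The P0 arrays lay about the control level, with the mean of 4.67 just above it and array 3 below it. The log2 change was 5.45 ± 0.28 (SE, n = 3 each; adjusted p = 1.78e-08), or 43.7-fold higher, and 0.295% of tested probe sets changed by more. Setting lower values to the control level gave a change of 5.27.

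TWIST2 had values of 6.74, 6.42 and 5.91 on P2 untreated arrays, against 5.10, 4.24 and 4.57 on P0 arrays. Its P0 arrays too lay about the control level, 2 of them below it. The change was 1.72 ± 0.24 (SE, n = 3 each; adjusted p = 5.27e-05), or 3.29-fold higher in P2 untreated cells, the smallest of the 7.

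HEY2, the other Notch-responsive repressor, moved opposite to HES1. On its brightest probe set (Ssc.24610.1.A1_at) the values were 12.16, 12.25 and 12.44 on P2 untreated arrays, against 10.48, 10.45 and 10.31 on P0 arrays. The P2 untreated arrays were all higher, and the change was 1.87 ± 0.12 (SE, n = 3 each; adjusted p = 1.21e-07), or 3.66-fold. Both other HEY2 probe sets rose too. Ssc.9478.2.S1_at averaged 7.76 ± 0.19 in P2 untreated and 6.73 ± 0.10 in P0 cells (SD, n = 3 each; adjusted p = 0.00042), a change of 1.04 ± 0.19 (SE). Ssc.9478.1.A1_at averaged 5.53 ± 0.34 in P2 untreated cells, while its P0 mean of 4.15 lay under the control level, so it was at least 1.92-fold higher, measured from that level (adjusted p = 0.00015).

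PRRX1 had values of 13.35, 13.37 and 13.55 on P2 untreated arrays, against 11.42, 11.65 and 11.60 on P0 arrays. Its replicates lay close together in both groups, with ranges of 0.20 in P2 untreated and 0.23 in P0 cells. The change was 1.87 ± 0.12 (SE, n = 3 each; adjusted p = 7.94e-08), or 3.64-fold higher in P2 untreated cells.

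**Figure D1:**
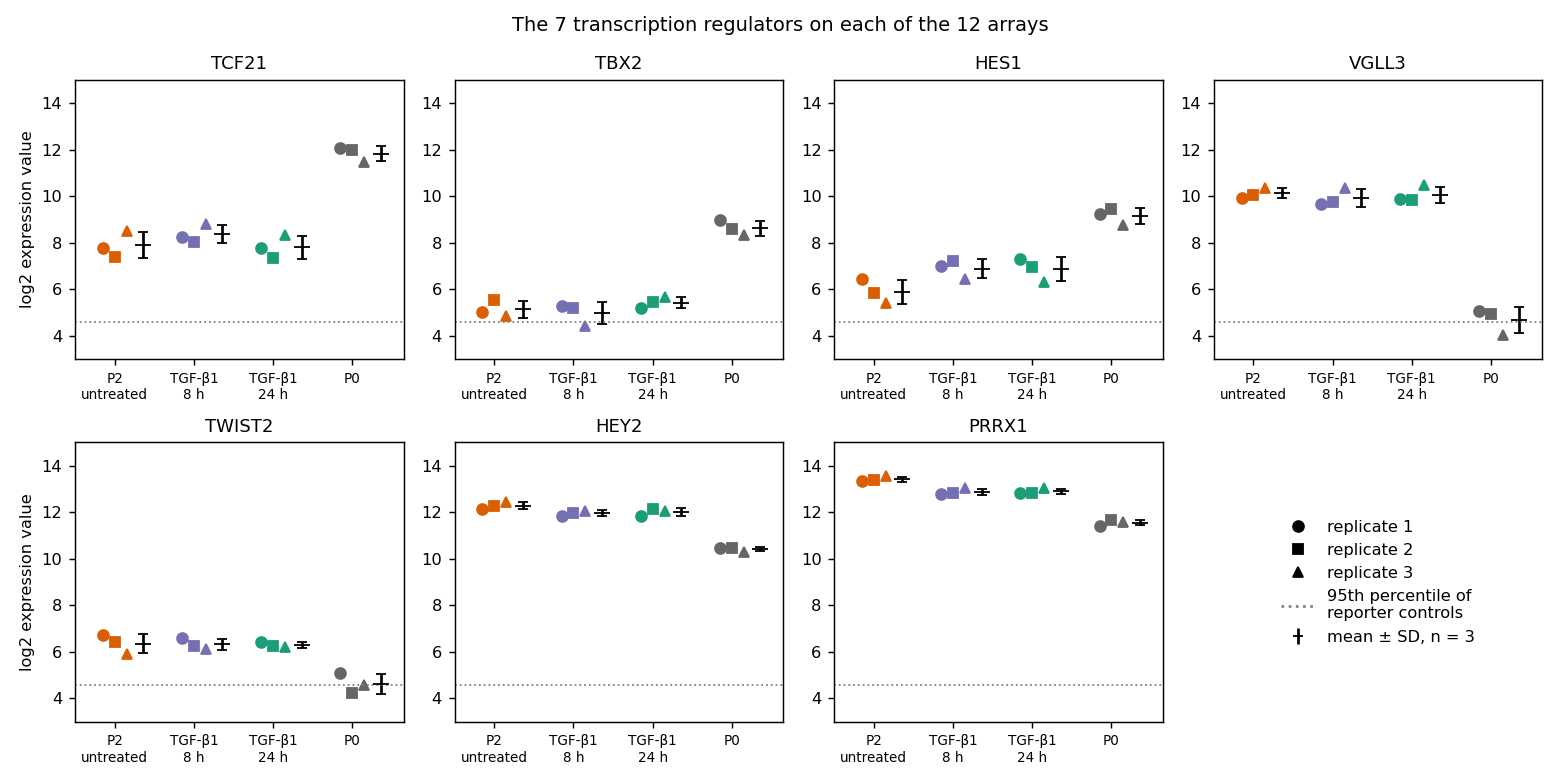
Log2 expression value (vertical axis) of each gene on each of the 12 arrays, by group (horizontal axis: the P2 cells in order of TGF-β1 time, then P0), with the mean ± SD of 3 arrays and the control level as a dotted line at 4.58. TCF21, TBX2 and HES1 are lower on all P2 arrays than on P0 arrays, while VGLL3, TWIST2, HEY2 and PRRX1 are higher, and heights are not to be compared between genes.

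**Figure D2:**
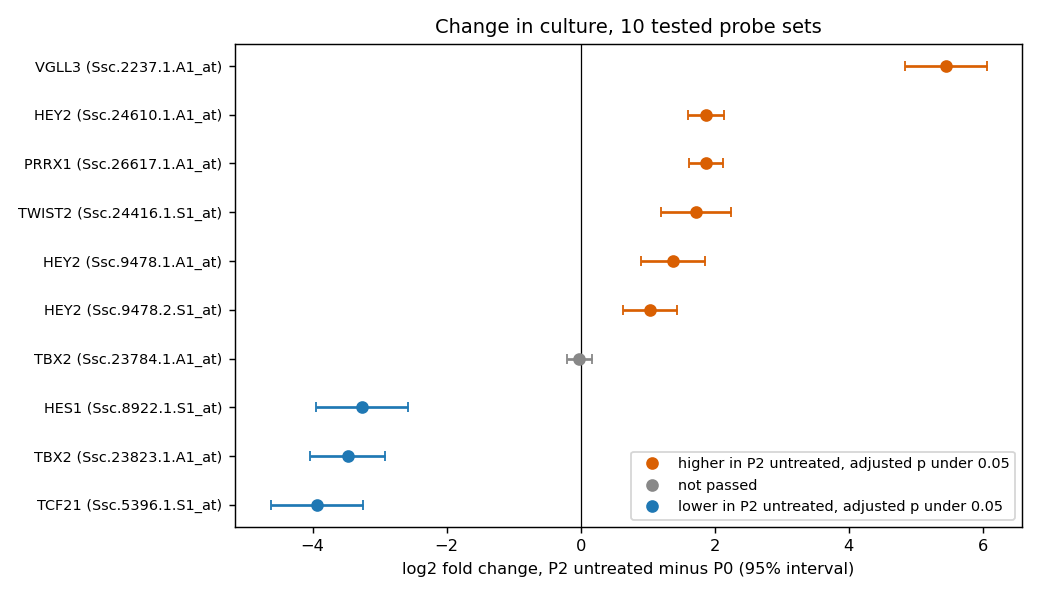
Log2 fold change of P2 untreated minus P0 cells (horizontal axis) with its 95% interval from limma, for the 10 tested probe sets (vertical axis). The 3 HEY2 probe sets lie on the higher side, whereas only 1 of the 2 tested TBX2 probe sets lies below 0 with its whole interval.

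**Figure D3:**
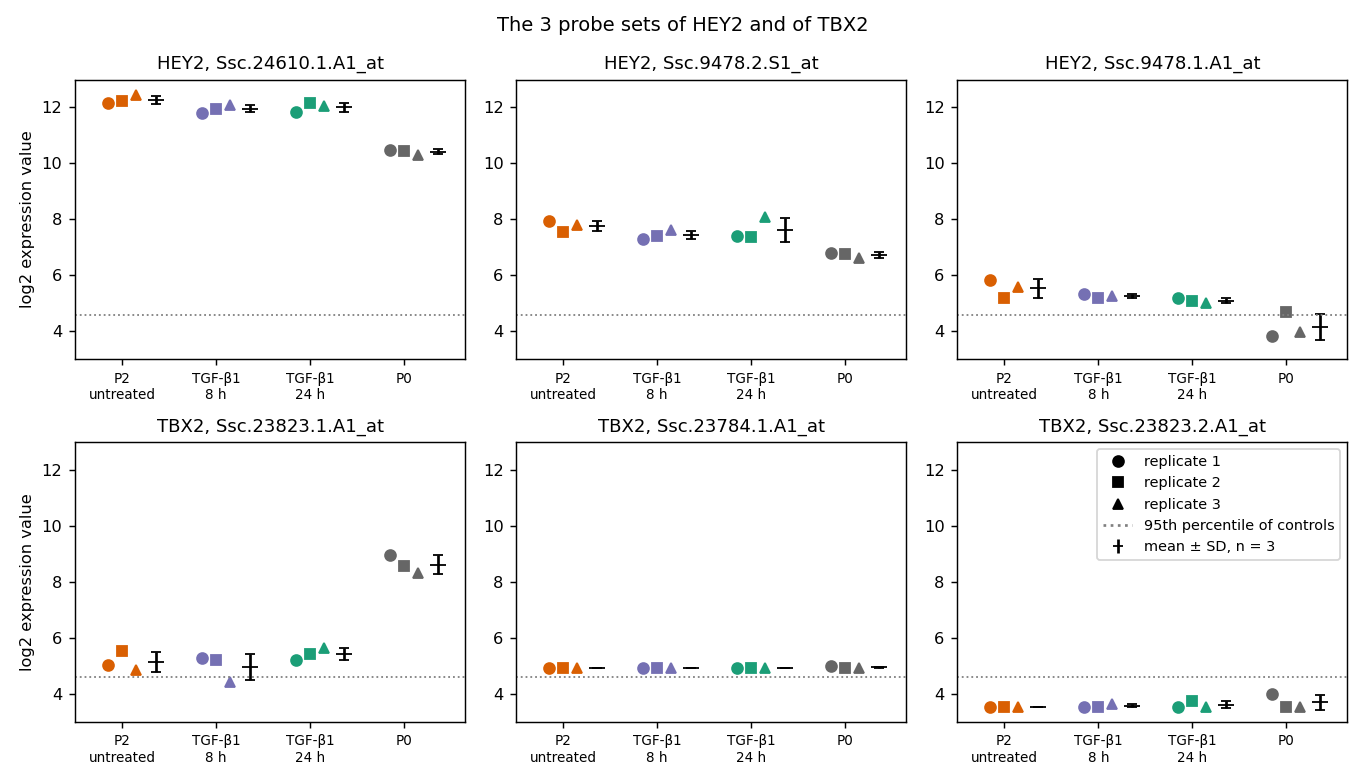
Log2 expression value (vertical axis) on each array by group (horizontal axis) for the 3 probe sets of HEY2 (upper row) and of TBX2 (lower row), with the mean ± SD of 3 arrays and the control level as a dotted line. The HEY2 probe sets share a direction between P2 and P0 arrays, while 2 TBX2 probe sets are flat, one at 4.93 and the other under the control level.

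Other measured differences ran beside the change in these 7 genes, and their part in it was not tested. Macrophage and monocyte markers had a mean over 10 genes of 6.26 to 6.72 on P2 untreated arrays and 9.28 to 9.79 on P0 arrays, and 10 of 10 fell, with a median log2 change of -3.15. Immediate-early and stress genes, known to respond quickly to tissue handling, had a mean over 15 genes of 9.25 to 9.41 on P2 untreated arrays and 12.83 to 13.02 on P0 arrays. Of these 14 of 15 fell, with a median change of -3.53, and the changes of FOS and ATF3 were -7.002 and -6.08. All 4 smooth muscle genes measured rose, with a median change of 1.27. Of 15 endothelial markers 3 fell and 12 did not pass, with a median change of 0.03, and SELE, LYVE1 and NOS3, which fell, changed by -5.24, -2.71 and -1.44. VWF entered that count through a flat probe set near the control level, whereas on the probe set that was bright in P0 cells it changed by -3.40 (adjusted p = 0.00010). The P2 untreated means of SELE, of LYVE1 and of VWF on that probe set lay under the control level, so the sizes of these falls are uncertain. Markers that did not pass could differ widely between arrays: CDH5, the cadherin of endothelial junctions, had 9.96, 10.79 and 6.72 on P2 untreated arrays, against 7.93, 7.94 and 8.0 on P0 arrays. On their brightest probe sets 6 of 10 valve interstitial and fibroblast markers fell and 1 rose, with a median change of -0.40. The changes were -1.89 for THY1, a fibroblast surface protein, -1.64 for DCN, a matrix proteoglycan, and 5.10 for S100A4, the marker that rose. The nearly steady mean of these markers therefore covers changes in both directions. COL1A2 changed by -0.44 and FN1 by -0.37 on these probe sets, but another probe set of each rose, by 2.23 and 0.84 (adjusted p = 3.05e-06 and 0.00182). The third FN1 probe set did not pass (adjusted p = 0.190). Of the rarer types, CD3G of lymphocytes lay under the control level in every group, HBB of erythrocytes changed by -0.77, 2 of 5 cardiac muscle genes rose and 0 of 2 adipocyte genes passed the test.

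The genes around HES1 and HEY2 in the Notch pathway changed unevenly in culture. Of 9 listed ligands and receptors only JAG1, NOTCH4 and DLL4 had a probe set with a single symbol, so NOTCH1, NOTCH2 and NOTCH3 were not covered. Among these 3 measured genes 1 fell and 2 did not pass the test. The one that fell was JAG1, with values of 10.03, 10.27 and 10.32 on P2 untreated arrays and 11.55 on each of the 3 P0 arrays, a change of -1.34 ± 0.12 (SE; adjusted p = 1.44e-06). Both other JAG1 probe sets fell too, with changes of -1.31 and -0.52. Of 9 genes for processing and nuclear steps, 1 rose and 2 fell. LFNG, which adds sugar to Notch receptors and alters their response to ligands, changed by -1.94, and PSEN2, a subunit of the protease that frees the receptor's inner part, by -0.68. ADAM17, a protease of the outer part, rose by 0.54 on its brightest probe set, but its 2 other probe sets did not pass the test (adjusted p = 0.261 and 0.508). RBPJ changed by 0.06 and did not pass.

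Around VGLL3, all 6 measured TEAD factors, cofactors and Hippo pathway genes passed the test, 3 in each direction. The list held 20 genes, and YAP1 and WWTR1 were not among those measured. TEAD1, one of the DNA-binding partners of VGLL proteins, had 8.45, 8.27 and 8.26 on P2 untreated arrays and 6.66, 7.01 and 7.08 on P0 arrays, a change of 1.41 ± 0.15 (SE; adjusted p = 8.00e-06). TEAD4 rose by 1.03 and LATS2, a Hippo kinase, by 0.77. VGLL4, a cofactor that competes with YAP for TEAD proteins, fell by 2.62, in the opposite direction to VGLL3, and AMOTL1 and SAV1 fell with changes of -1.59 and -1.07. Of 6 genes known as TEAD targets, 3 rose and 1 fell. ANKRD1 was at least 19.7-fold higher in P2 untreated cells, since its P0 mean of 3.79 lay under the control level. Its P2 untreated values were 9.51, 10.07 and 7.07, the lowest on the array numbered 3, and the bound was 36.9-fold without that array and 5.61-fold on it alone. CRIM1 rose by 2.70 and CCN1, listed as CYR61, by 0.53, while GADD45A fell by 0.84 on the log2 scale.

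Among relatives of TCF21 and TWIST2, 6 of 7 measured bHLH factors, partners and inhibitors fell and 1 rose, with a median change of -1.72. BHLHE40, a repressor related to HES1, fell by 3.40, though its second probe set did not pass (adjusted p = 0.212). TCF4, the E protein partner, was at least 1.56-fold lower, its P2 untreated mean of 2.95 being under the control level. The changes were -2.19 for ID1, an inhibitor that binds E proteins, -1.72 for MSC, a bHLH repressor, and 0.37 for ID3, the gene that rose. Of 6 homeobox factors other than PRRX1, 4 fell and 1 rose, with changes of -1.47 for TGIF1, -1.38 for MEIS2 and 1.25 for MEIS1, the gene that rose. The second probe set of MEIS2 went the other way (0.49; adjusted p = 0.0319), and that of MEIS1 did not pass (0.43; adjusted p = 0.0917). Of 14 other transcription factors of valve and mesenchyme, 9 fell and 1 rose, with changes of -4.63 for EGR1, -2.85 for KLF4, -1.91 for ETS2, -1.87 for SNAI1 and 0.38 for MEF2A. No other T-box factor or Notch target of the lists used had a probe set with a single symbol.

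Fewer of the 7 genes passed a test under TGF-β1 than in culture, and their changes were smaller. The 8 h and 24 h comparisons share the P2 untreated arrays, so their values are set side by side and are not independent. At 8 h 1 of 7 genes passed the test without the block, PRRX1, downward, against 5.07% of all tested probe sets and 2.53% in each direction. At 24 h it was again PRRX1 alone, against 8.49%, with 4.27% upward and 4.22% downward. With the replicate number as a block TCF21 and HES1 passed upward beside PRRX1 at 8 h, against 12.5% of tested probe sets. In that fit HES1 passed upward beside PRRX1 at 24 h, against 20%, as did the dimmest HEY2 probe set downward. The median absolute log2 change over the 7 genes was 0.33 at 8 h and 0.27 at 24 h, beside 0.16 and 0.18 over all tested probe sets. Of 7 TGF-β response genes, 3 rose at 8 h and 4 at 24 h without the block, among them PMEPA1, a TGF-β target, by 2.64 at 8 h and 2.70 at 24 h. With the block 4 rose at each time. TIMP3 fell at 24 h in that fit on its brightest probe set (adjusted p = 0.0028), with a change of -0.77, and its other probe set did not pass.

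PRRX1 had values of 12.77, 12.83 and 13.02 after 8 h of TGF-β1 and 12.83, 12.83 and 13.03 after 24 h, against 13.35, 13.37 and 13.55 in P2 untreated cells. Neither treated group overlapped the untreated one, and within each replicate number the treated array was lower with differences of -0.58 to -0.53 at 8 h and of -0.54 to -0.52 at 24 h. The groups did not overlap for 25.5% of tested probe sets at 8 h and 25.3% at 24 h. The log2 change was -0.55 ± 0.12 at 8 h (SE, n = 3 each; adjusted p = 0.0205), 1.46-fold lower, and -0.52 ± 0.12 at 24 h (SE; adjusted p = 0.0171), 1.44-fold lower. The call is close to the threshold: without the P2 arrays numbered 3 the adjusted p was 0.0765 at 8 h and 0.0552 at 24 h, and without untreated replicate 3 alone it was 0.0919 and 0.0768. It was also lost at 8 h without treated replicate 1 (0.0915) or 2 (0.0770), and at 24 h without treated replicate 1 (0.0628) or 2 (0.0517). With the replicate number as a block PRRX1 passed at both times (adjusted p = 0.00538 at 8 h and 0.00341 at 24 h). In the blocked fit without the arrays of number 1, 2 or 3 its adjusted p was 0.107, 0.0518 and 0.0465 at 8 h and 0.0663, 0.0383 and 0.0290 at 24 h.

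HES1 had values of 7.0, 7.21 and 6.44 at 8 h and 7.32, 6.94 and 6.32 at 24 h, against 6.43, 5.85 and 5.39 in P2 untreated cells. Each treated array was higher than the untreated array of its number, by 0.57 to 1.36 at 8 h and by 0.88 to 1.10 at 24 h. The groups were apart by only 0.003 at 8 h and overlapped at 24 h, since the arrays numbered 3 were the lowest in each P2 group. Without the block the change was 0.99 ± 0.31 at 8 h and 0.97 ± 0.31 at 24 h (SE, n = 3 each; adjusted p = 0.104 and 0.0836), and did not pass the test. With the replicate number as a block the standard error was 0.15 at each time, and HES1 rose at 8 h (adjusted p = 0.00675) and at 24 h (adjusted p = 0.00425). Under that block 12.5% of tested probe sets passed at 8 h and 20% at 24 h.

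Markers of cell types moved with HES1 in the same blocked fit, and their part in its rise was not tested. Of 15 endothelial markers 2 rose and 2 fell at 8 h, and 2 rose and 4 fell at 24 h. PECAM1, an endothelial adhesion protein, changed by -0.72 and -1.60 (adjusted p = 0.00614 and 0.00018), CLDN5 by -2.10 at 24 h, and ERG, an endothelial transcription factor, rose by 1.10 and 1.49. Of 10 macrophage and monocyte markers 2 fell at 8 h and 3 at 24 h, among them CD14 with changes of -0.59 and -0.73 and MRC1 with -0.48 and -0.83. The second CD14 probe set did not pass. Of 10 valve interstitial and fibroblast markers, on their brightest probe sets, 0 passed at 8 h, and at 24 h 2 rose and 4 fell. The changes at 24 h were -1.33 for S100A4, -1.14 for COL3A1 and 0.61 for FN1. Another FN1 probe set rose at both times, by 1.19 and 1.58 (adjusted p = 0.0102 and 0.00191), and the third did not pass. The mean over the endothelial list was 5.76 to 7.23 at 8 h and 5.55 to 6.96 at 24 h, against 5.69 to 7.39 on P2 untreated arrays. Over the macrophage list it was 6.04 to 6.48 at 8 h and 5.94 to 6.32 at 24 h, against 6.26 to 6.72 on P2 untreated arrays. Without the block, on the brightest probe sets, ERG rose and CD14 fell at both times, and COL3A1 fell and FN1 rose at 24 h. On those probe sets 0 other markers of these 3 lists passed. The other FN1 probe set that rose with the block did so without it too, at both times (adjusted p = 0.00522 and 0.00047).

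Leaving out the arrays of 1 number from the blocked fit leaves 2 arrays a group, a check chosen after seeing the data. At 24 h HES1 passed without number 1, 2 or 3 (adjusted p = 0.0259, 0.0311 and 0.0421). At 8 h it passed in none of the 3 (adjusted p = 0.0578, 0.0609 and 0.0707), with changes of 0.81 to 1.20. After 24 h HES1 still lay below P0 cells: its highest treated array, at 7.32, was under the lowest P0 array, at 8.77.

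JAG1, the Notch ligand, had 10.86, 11.10 and 10.91 at 8 h and 10.62, 10.92 and 10.83 at 24 h, against 10.03, 10.27 and 10.32 in P2 untreated cells. It rose by 0.75 ± 0.12 at 8 h and by 0.58 ± 0.12 at 24 h (SE, n = 3 each; adjusted p = 0.00596 and 0.0114), with no overlap. Its other 2 probe sets were higher in treated cells by 0.22 to 0.56 and did not pass without the block (adjusted p = 0.112 to 0.655). With the block the brighter one rose by 0.56 at 8 h and at 24 h (adjusted p = 0.0194 and 0.0131). The dimmer one did not pass with the block either (adjusted p = 0.0720 and 0.157). On the brightest JAG1 probe set without the block, leaving out untreated replicate 1 ended the call at 24 h (adjusted p = 0.0514). Leaving out any other single array did so at neither time. Whether the values of JAG1 and HES1 are linked was not tested. Other Notch pathway genes that passed on their brightest probe set moved down. Of 9 genes for processing and nuclear steps 1 fell at 8 h, ADAM17 with a change of -0.49 (adjusted p = 0.0257), and 0 passed at 24 h. With the block ADAM17 fell at 24 h too (change -0.37; adjusted p = 0.0248), as did LFNG (change -0.41; adjusted p = 0.0494). The other probe sets of ADAM17 and LFNG did not pass at either time, with or without the block. RBPJ went the other way at 24 h. With the block its brightest probe set was higher by 0.30 and did not pass (adjusted p = 0.113). Its other 2 probe sets rose in that fit, by 0.36 and 0.28 (adjusted p = 0.0393 and 0.0432).

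HEY2 had values of 11.82, 11.96 and 12.07 at 8 h and 11.84, 12.16 and 12.04 at 24 h, against 12.16, 12.25 and 12.44 in P2 untreated cells. The treated arrays lay below all untreated ones, by 0.09 at the nearest at 8 h and by 0.001 at 24 h. The change was -0.33 ± 0.12 at 8 h and -0.27 ± 0.12 at 24 h (SE, n = 3 each; adjusted p = 0.172 and 0.220), and did not pass; with the block the adjusted p was 0.0502 and 0.0718. On the probe set Ssc.9478.1.A1_at, the dimmest of the 3, the block brought the change at 24 h past the threshold (-0.44 ± 0.12; adjusted p = 0.0409), a call lost in that fit without number 1 or 3 (adjusted p = 0.250 and 0.203).

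TCF21 had values of 8.25, 8.04 and 8.79 at 8 h and 7.76, 7.34 and 8.32 at 24 h, against 7.79, 7.38 and 8.51 in P2 untreated cells. At 8 h each array lay above the untreated array of its number, by 0.28 to 0.66, and at 24 h below it, with differences of -0.19 to -0.02. The change without the block was 0.47 ± 0.32 at 8 h and -0.09 ± 0.32 at 24 h (SE, n = 3 each; adjusted p = 0.521 and 0.919). With the block, TCF21 rose at 8 h (standard error 0.09; adjusted p = 0.0202) and did not pass at 24 h (adjusted p = 0.581). The blocked rise at 8 h did not pass in any of the 3 fits with a number left out (change 0.37 to 0.56; adjusted p = 0.0571 to 0.172).

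The difference between the times was tested directly. Without the block 0 of 7 genes passed for 24 h against 8 h, and 0.232% of all tested probe sets did, 0.142% upward and 0.0907% downward. None of the 7 had an unadjusted p under 0.05, the lowest being 0.0982 for TBX2 and 0.107 for TCF21. With the block TCF21 fell at 24 h relative to 8 h, with a change of -0.55 ± 0.09 (SE; adjusted p = 0.0329), in 3 of 3 pairs, against 2.44% of tested probe sets passing. With the arrays of 1 number left out of that fit the change was -0.48 to -0.59 and passed in none of 3 (adjusted p = 0.114 to 0.333).

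VGLL3, TWIST2 and TBX2 passed no test under TGF-β1, with or without the block. VGLL3 averaged 9.91 ± 0.39 at 8 h and 10.07 ± 0.35 at 24 h, against 10.12 ± 0.22 in P2 untreated cells (SD, n = 3 each). The 95% interval of its log2 change was -0.82 to 0.41 at 8 h and -0.67 to 0.56 at 24 h. TWIST2 averaged 6.32 ± 0.24 at 8 h and 6.29 ± 0.13 at 24 h, against 6.36 ± 0.42 (SD), with intervals of -0.55 to 0.48 and -0.59 to 0.45. TBX2 averaged 4.97 ± 0.46 at 8 h and 5.43 ± 0.23 at 24 h, against 5.14 ± 0.36 (SD), with intervals of -0.73 to 0.38 and -0.27 to 0.84. TEAD1, the partner of VGLL proteins, had 7.59, 7.68 and 7.60 at 8 h against 8.45, 8.27 and 8.26 in P2 untreated cells, a change of -0.71 ± 0.15 (SE; adjusted p = 0.0233), and with the block it also fell at 24 h (change -0.50; adjusted p = 0.0453). VGLL4 rose with the block at both times, by 0.63 and 0.55 (adjusted p = 0.0243 and 0.0277), and its second probe set did not pass, with or without the block.

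**Figure D4:**
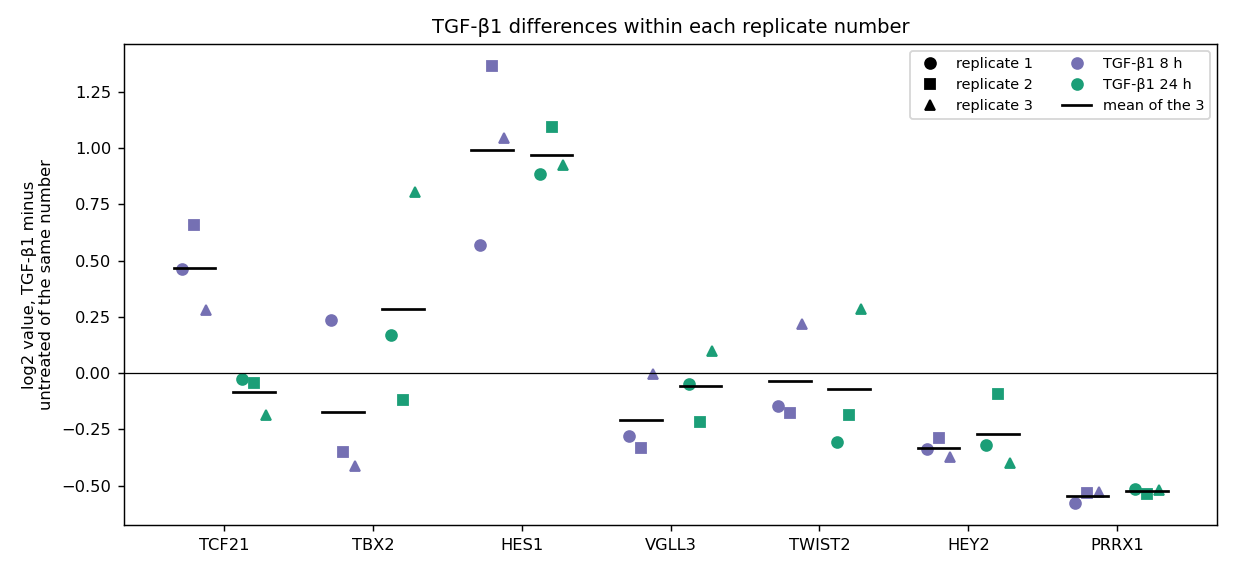
Log2 value on a TGF-β1 array minus that on the P2 untreated array of the same replicate number (vertical axis) for each gene (horizontal axis), at 8 h and 24 h, with lines at the mean of 3. HES1 lies above 0 and PRRX1 below 0 in 3 of 3 pairs at both times, while TCF21 lies above 0 at 8 h and just below it at 24 h.

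Of the other lists, few members passed under TGF-β1. Without the block 1 of 7 bHLH genes rose at both times, BHLHE40, by 0.75 at 8 h and 0.78 at 24 h, though its second probe set did not pass. Of the homeobox factors SIX4 rose at 8 h, by 0.86, and MEIS1 at 24 h, by 1.29. The second MEIS1 probe set rose at both times without the block, by 0.87 and 1.29 (adjusted p = 0.0331 and 0.00337). Of 14 other transcription factors SNAI1, a repressor of epithelial genes, rose at both times, by 1.45 and 1.43, while NR2F2 and ETS2 fell at 8 h, with changes of -0.67 and -0.61. The second SNAI1 probe set was higher by 0.63 and 0.48 and passed with the block (adjusted p = 0.0229 and 0.0409) but not without it (0.0539 and 0.105). Without the block neither of the other 2 probe sets of NR2F2 (adjusted p = 0.0690 and 0.0737) or of ETS2 (0.0835 and 0.458) passed at 8 h. Of 6 TEAD targets, on their brightest probe sets, 1 rose at 8 h and 2 at 24 h: F3 by 2.83 and 3.03, and TGFB2 by 0.44 at 24 h. Another TGFB2 probe set rose at both times without the block, by 0.58 and 0.60 (adjusted p = 0.0399 and 0.0253). The remaining TGFB2 probe sets did not pass without it at either time (adjusted p = 0.101 to 0.620). With the block 2 TEAD targets also fell, ANKRD1 at 24 h (change -1.32; adjusted p = 0.00494) and CRIM1 at both times (change -0.46 and -0.45; adjusted p = 0.0141 and 0.0101). The block also brought ID1 past the threshold, downward, at both times (change -1.52 and -1.48; adjusted p = 0.00439 and 0.0025). Of 6 BMP pathway genes, 0 passed at 8 h without the block, and at 24 h BMPR1B and ACVR1 rose while FST fell. In culture BMP4 and BMPR1B had risen and FST had fallen. With the block BMPR1B rose at 8 h by 1.09 (adjusted p = 0.00882), and SMAD1 fell with a change of -0.38 (adjusted p = 0.0293). BMP4 fell at 24 h in that fit, with a change of -0.70 (adjusted p = 0.0106). With the block some counts were higher. In that fit 5 of the 14 other transcription factors fell at 8 h, and MEIS1 rose at that time too, by 0.87 (adjusted p = 0.0313). MEIS2 fell at both times, with changes of -0.77 and -0.48. ETS2 fell at 24 h too on its brightest probe set, with a change of -0.47 (adjusted p = 0.0214), and its other 2 probe sets did not pass at that time. Several calls without the block were lost when single arrays were left out. With each array left out in turn, at 8 h CD14 passed in 2 of 12 fits, ETS2 in 6, TEAD1, BHLHE40 and ADAM17 in 7 each, ERG in 8 and NR2F2 in 9. At 24 h TGFB2 passed in 3, ACVR1 in 7, COL3A1 in 8, BHLHE40 in 10 and CD14 in 11, and in culture MEF2A did in 4, BMP4 in 5, FST in 9 and NOS3 in 10.

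The genes also differed between replicates of one group. The P2 arrays numbered 3 had the highest TCF21, PRRX1 and VGLL3 values in 3 of 3 P2 groups and the lowest HES1 and TWIST2 values in 3 of 3. Their TBX2 value was lowest in 2 groups and highest in 1, and their HEY2 value was highest in 2. P2 arrays of one number varied together, so the 3 groups are not independent here, and no share over all probe sets is given. The arrays numbered 3 were the same arrays that had the low endothelial means given above, and the part of that difference in the gene values was not tested. In the order of the 4 group means, P0 was highest for TCF21, TBX2 and HES1 and lowest for the other 4 genes, and it never overlapped its neighbour. P2 untreated was highest for HEY2 and PRRX1 and did not overlap the next group, 24 h. All other neighbours among the P2 groups overlapped.

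**Figure D5:**
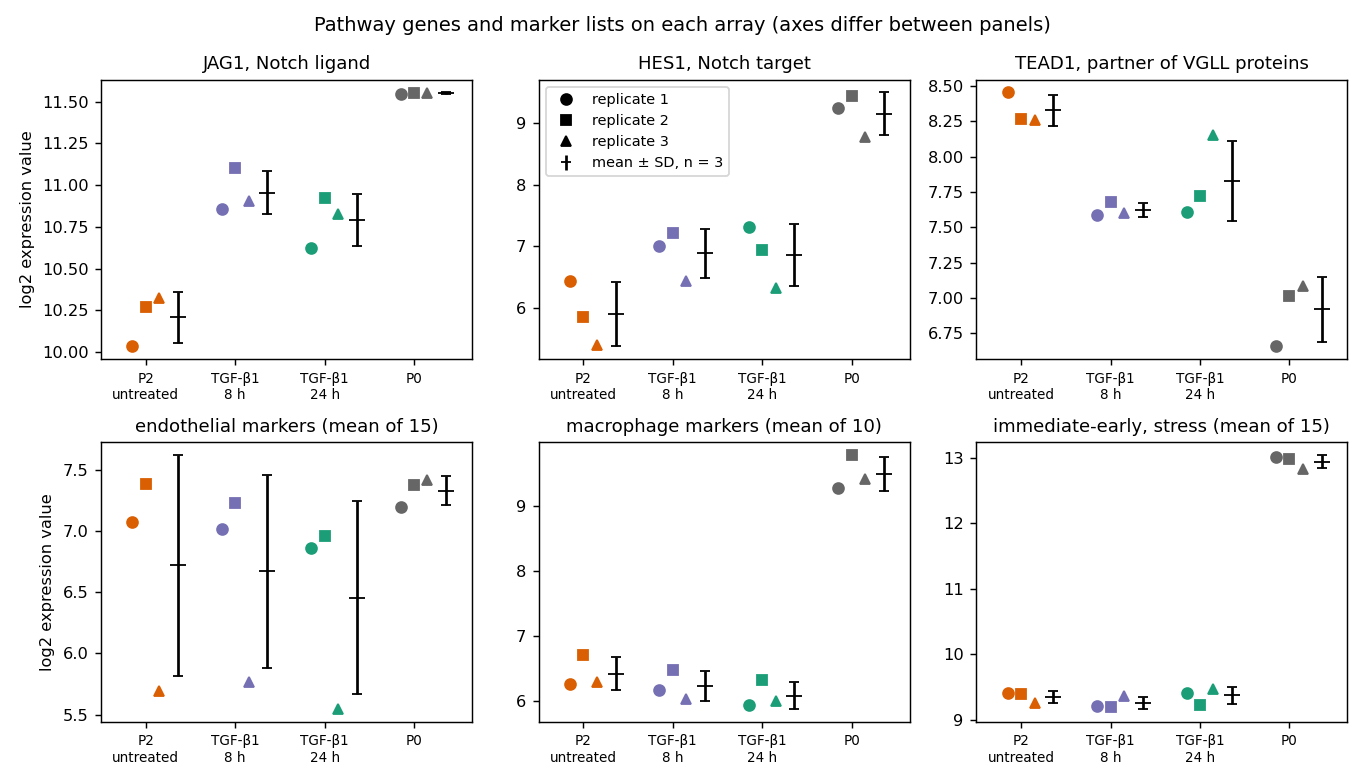
Log2 expression value (vertical axis, its range differing between panels) on each array by group (horizontal axis) for JAG1, HES1 and TEAD1, and the mean over the endothelial, macrophage and immediate-early lists, with the mean ± SD of 3 arrays. JAG1 and HES1 are lowest in P2 untreated cells, TEAD1 is highest there, and the endothelial mean is low on the 3 P2 arrays numbered 3.

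Genes whose pattern was most like each member were taken by Pearson's correlation of log2 values among 6011 genes, as a description. Over all 12 arrays, which mostly reflects the gap between P2 and P0, the most alike were NFYC for TCF21 (r = 0.986), CDKN1A for TBX2 (r = 0.992) and BTG1 for HES1 (r = 0.976). They were CFL2 for HEY2 (r = 0.992), FEZ2 for PRRX1 (r = 0.990), CHMP2A for TWIST2 (r = 0.984) and TRAPPC11 for VGLL3 (r = 0.996). Over the 9 P2 arrays alone, other genes came first: HEMK1 for TCF21 (r = 0.946), PPP2R2A for TBX2 (r = 0.926) and SAR1A for HES1 (r = 0.958). GMPR came first for HEY2 (r = 0.968), NFIB for PRRX1 (r = 0.987), ROMO1 for TWIST2 (r = 0.958) and RND3 for VGLL3 (r = 0.974). Arrays in these correlations share groups and, among P2 arrays, replicate numbers.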

How the data were processed

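Gene expression was measured on 12 arrays in 4 groups of 3. The authors deposited log2 values per probe set, and GCRMA is named without a version per the submitters' processing notes. The labels and notes give no other steps, scan times or batches. Raw images and coordinates were not used. Array medians lay within 0.0734 of each other and no further normalization was applied. Precision is limited by the number of arrays; the standard error of a change had a median of 0.159.

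Probe sets over log2 4 in at least 3 arrays were tested (17638). Names came from the platform annotation, updated through RefSeq: 10069 probe sets had 1 symbol, 198 several and 13732 none, and 9961 of the 10069 matched a RefSeq gene. A model with a mean for each of the 4 groups was fitted by limma 3.58.1 (R 4.3.3; lmFit, then eBayes with 8 residual degrees of freedom) to the 12 arrays together, with two-sided tests and Benjamini-Hochberg adjustment over all tested probe sets; a call is an adjusted p under 0.05. All p-values not otherwise named come from that fit. The fit was tested on simulated data. Fold values under the control level are lower bounds.

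The labels number the replicates in each group. After group means were removed, P2 arrays of the same number correlated at 0.348 to 0.679 over 9 pairs, and those of different numbers at -0.513 to 0.0796 over 18. P0 arrays with P2 arrays of the same number gave -0.0916 to 0.0158. The numbers therefore pair the P2 arrays, and blocked fits used the 9 P2 arrays.

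The 7 genes and all gene lists were chosen with earlier results of these data known. From each list up to 4 called genes with the largest changes were named, and from each correlation the first of the 3 most alike. RBPJ, TEAD4, LATS2, ID3, MEF2A, HBB, CD3G, VWF, CDH5, markers and pathway genes called with the block, and other probe sets of listed genes were named beside them after their values were seen. Alternatives are given in the closing section.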

Additional observations from a re-analysis of the deposited data

Results flagged for a closer look

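One result was picked out because an effect differed between times. With the replicate number as a block, the TGF-β1 effect on TCF21 at 24 h minus that at 8 h was -0.55 on the log2 scale, in the same direction in 3 of 3 pairs. Without the block this difference did not pass the test (adjusted p = 0.653), and with the arrays of any 1 number left out of the blocked fit it did not pass either. Groups of 3 arrays were too small to be searched for single arrays far from the others.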

How the results depend on the processing

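Alternatives were no filter, a filter at log2 6, the 2 compared groups alone, quantile normalization, a trended and robust variance, values raised to the control level, the replicate block, no P2 arrays numbered 3, other probe sets of a gene, and each array left out in turn. All 9 probe sets of the 7 genes called in culture kept their call and direction under these, except that the flat TBX2 probe set gave -0.02 in place of -3.48 and the dimmest HEY2 probe set was not tested with the filter at log2 6. With each array left out, 9577 to 10722 probe sets were called in culture, and 9 of the genes' probe sets each time.

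At 8 h the probe sets called (894) became 519 with the 2 groups alone, 2200 with the replicate block and 265 without the arrays numbered 3, and the genes' probe sets called (1) became 0, 3 and 0. At 24 h the count (1498) became 631, 3519 and 762 under those settings, and the genes' count (1) became 0, 3 and 0. For 24 h against 8 h the count (41) became 25 with no filter, 0 with the 2 groups alone (limma; 1532 had an unadjusted p under 0.05, none of them a brightest probe set of the 7 genes), 430 with the block, 72 with a trended and robust variance, 23 with raised values and 12 without the arrays numbered 3; the genes' count (0) became 1 with the block. In culture the block, fitted there to all 12 arrays, changed no call of the genes' probe sets. The count of all probe sets called went from 10483 to 11027. With the 2 groups alone PRRX1 had an adjusted p of 0.0547 at 8 h and 0.0660 at 24 h. The cause of these shifts was not tested, beyond fewer arrays in some fits.

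Leaving out 1 array gave 364 to 988 called probe sets at 8 h, 800 to 1398 at 24 h and 4 to 49 for 24 h against 8 h, and 0 to 1, 0 to 2 and 0 of the genes' probe sets. HES1 at 24 h passed without treated replicate 3 (1.24; adjusted p = 0.0400).

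Small changes that turned sign were all below the threshold. Quantile normalization gave 0.058 for the flat TBX2 probe set in culture, 0.0056 for TWIST2 at 8 h and -0.0049 for PRRX1 at 24 h against 8 h. HES1 at 24 h against 8 h was 0.024 without the arrays numbered 3, and HEY2 there was -0.17 on its dimmest probe set. With 1 array left out, the flat TBX2 probe set ran from -0.025 to 0 in culture. At 8 h TBX2 ran from -0.33 to 0.093 and TWIST2 from -0.26 to 0.16. At 24 h TCF21 ran from -0.34 to 0.22, TWIST2 from -0.29 to 0.12 and VGLL3 from -0.25 to 0.068. For 24 h against 8 h HES1 ran from -0.25 to 0.25, PRRX1 from -0.044 to 0.095, TWIST2 from -0.13 to 0.10 and VGLL3 from -0.049 to 0.37. HEY2 ran there from -0.010 to 0.15 on its brightest probe set and from -0.057 to 0.32 on the second. The flat TBX2 probe set was constant over the P2 arrays and has no such values.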
